A study of Mus musculus with 6 samples.

Results

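The arms of the miR-193 and miR-365 microRNAs (miRNAs) were followed in primary dermal fibroblasts from newborn mice, in which both gene pairs were expressed and none of the 7 mature arms differed between genotypes past the threshold of the test. The arms were taken by name from the count tables because the miRNAs had been reported to respond to Nrf2, and all 7 of them were found among the 1907 listed miRNA names. They were mmu-miR-193a-3p, mmu-miR-193a-5p, mmu-miR-193b-3p, mmu-miR-193b-5p, mmu-miR-365-3p, mmu-miR-365-1-5p and mmu-miR-365-2-5p, and they are given below without the mouse prefix. The fibroblasts of 3 mice (caNrf2) had the genotype Col1a2Cre-caNrf2, a constitutively active Nrf2 mutant together with a Cre recombinase expressed in fibroblasts from the Col1a2 promoter. Those of 3 other mice (ctrl) had the genotype Col1a2Cre-wt and carried the same Cre without the mutant, so the Cre was common to all 6 libraries. All animals were newborn and of a mixed C57Bl/6 and FVB/N background, and the cells were cultured for 6 days and used at passage 1. The comparison asked how constitutive Nrf2 activity changes the miRNAs of dermal fibroblasts.

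A miRNA gene is transcribed as a hairpin, from which Drosha and Dicer release a 5p and a 3p arm, and the arm that is kept in an Argonaute protein recognises target mRNAs mainly through its seed, bases 2 to 8. The vertebrate genome holds the miR-193 and miR-365 genes as neighbouring pairs. The mouse pair of miR-193b and miR-365 is known from brown fat, where it is abundant, and in human cancer cells miR-193 and miR-365 have been reported to repress growth-promoting genes such as cyclin D1. Nrf2 is a transcription factor that is kept low by Keap1 and, when active, switches on antioxidant and detoxification genes.

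The 7 mature arms are shown with the seed in capitals, 5′ to 3′, because the seeds and the small differences between paralogous arms determine which counts can be told apart. Their sequences and positions came from RefSeq for GRCm38.p6, the same assembly as mm10, in which all 7 names were matched. On chromosome 11, plus strand, lie the arms of Mir193a and Mir365-2.
mmu-miR-193a-3p: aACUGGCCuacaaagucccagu
mmu-miR-193a-5p: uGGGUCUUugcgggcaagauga
mmu-miR-365-2-5p: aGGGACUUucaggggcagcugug
On chromosome 16, plus strand, lie the arms of Mir193b and Mir365-1.
mmu-miR-193b-3p: aACUGGCCcacaaagucccgcu
mmu-miR-193b-5p: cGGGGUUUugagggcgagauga
mmu-miR-365-1-5p: aGGGACUUuugggggcagaugug
miR-365-3p has the same sequence in Mir365-2 and Mir365-1.
mmu-miR-365-3p: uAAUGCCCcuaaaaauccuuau
The 7 arms carry 5 seeds. miR-193a-3p and miR-193b-3p share the seed ACUGGCC, and both miR-365 5p arms share GGGACUU. No other mature miRNA in the RefSeq table of 1679 names carried any of the 5 seeds. The 3p arms of miR-193 differ at 3 of 22 positions, counted from 1 at the 5′ end, as U9C, A20G and G21C from miR-193a-3p to miR-193b-3p. The 5p arms of miR-365 differ at 3 of 23 positions, C10U, A11G and C19A from miR-365-2-5p to miR-365-1-5p. The miR-193 5p arms differ at 5 of 22 positions, 2 of which, U5G and C6U, fall in the seed.

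The precursors of miR-365 are shown with their mature arms in capitals, because reads of the common 3p arm cannot be assigned to either of them. Full-length reads of the 5p arms without errors can be assigned. The mapping settings are not given, and whether reads of 1 miR-365 5p arm were counted for the other was not tested.
Mir365-2: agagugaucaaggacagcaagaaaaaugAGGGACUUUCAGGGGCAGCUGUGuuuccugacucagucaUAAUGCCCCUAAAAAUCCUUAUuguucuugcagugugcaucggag
Mir365-1: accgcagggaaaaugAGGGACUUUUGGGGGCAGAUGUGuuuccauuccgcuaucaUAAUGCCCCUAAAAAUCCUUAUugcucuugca
Mir193a lies at chr11:79711969-79712034 and Mir365-2 at chr11:79726400-79726511, with 14365 bases between them. GENCODE M21 places neither of them within another gene. Mir193b at chr16:13449523-13449601 and Mir365-1 at chr16:13453840-13453926 are separated by 4238 bases, and both lie in an intron of Gm15738, an antisense RNA gene on the opposite strand. In RefSeq they fall on the same strand within the span of the long noncoding RNA genes Gm32817 and Gm53058, whose common start is 1571 bases before Mir193b. The 300 bases around that start, chr16:13447702-13448001, held no match on either strand to TGACNNNGC, the core of the antioxidant response element to which Nrf2 binds, which was present in 12.4% of 32851 RefSeq promoter windows of the same length. Windows at another start of Gm32817 (chr16:13468611-13468910) and at Gm11205 (chr11:79704320-79704619) also held no match. No RefSeq gene, Gm11205 included, spanned Mir193a or Mir365-2, so no promoter known to be theirs was searched. The only other annotated miRNA near the 4 precursors (up to 50 kb away) was Mir6365 on chromosome 16. miR-6365 had 0 counts in all 6 libraries.

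Each library was summarised as raw counts of reads per mature miRNA. The counts summed to between 13733970 and 28237159 in caNrf2 libraries and to between 10443268 and 20595024 in ctrl libraries, and the 7 arms held 0.0724% to 0.0876% of them in caNrf2 and 0.0695% to 0.0828% in ctrl libraries. Levels are given as counts scaled to a common library size (CPM) after TMM scaling, a scaling of the libraries by their bulk of unchanged miRNAs. At this depth 3 counts corresponded to between 0.107 and 0.289 CPM. For the labelled cell type, 8 fibroblast and mesenchymal miRNAs were listed as markers. They summed to between 456038 and 492010 CPM in caNrf2 and between 424399 and 435036 CPM in ctrl libraries. Most of that sum came from miR-22-3p, miR-21a-5p and miR-143-3p, while miR-199a-5p, miR-214-3p and miR-152-3p averaged 7077, 3095 and 263 CPM over the 6 libraries. Whether the sum identifies the cell type was not tested. Of the 8 markers, 1 was called higher in caNrf2 fibroblasts (miR-22-3p) and 3 lower, where 14.1% of all tested miRNAs were higher and 11.6% lower. The 3 lower were miR-10b-5p, miR-152-3p and miR-199a-5p, with log2 fold changes of -0.56, -0.48 and -0.51. The median log2 fold change of the 8 markers was -0.12. The transgene codes for a protein and therefore cannot be seen in these counts. In bulk RNA, fewer cells that express a miRNA and less of it per cell cannot be told apart. In such libraries a read stands for 1 small RNA, so levels of the 22-base and 23-base arms were compared without a length correction, although library preparation captures different sequences with unequal efficiency.

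miR-193a-3p, the chromosome 11 arm that shares its seed with miR-193b-3p, was the most abundant of the 7. It had 586, 532 and 499 CPM in caNrf2 libraries 1, 2 and 3, against 625, 471 and 538 CPM in ctrl libraries 1, 2 and 3. The groups overlapped completely, the highest and the lowest level both being found in ctrl libraries. The means were 539 ± 44.2 CPM in caNrf2 and 545 ± 77.3 CPM in ctrl fibroblasts (SD, n = 3 each). The log2 fold change, caNrf2 over ctrl, was -0.015 ± 0.11 (SE; edgeR's quasi-likelihood test, p adjusted by Benjamini and Hochberg over 697 tested miRNAs, adjusted p = 0.939), and its sign turned when libraries were scaled by their totals alone (0.0093). The 95% interval of the fold ran from 0.836 to 1.17.

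Its passenger arm miR-193a-5p, the less used strand of the same hairpin, was far rarer. It had 2.74, 2.62 and 2.47 CPM in caNrf2 libraries, against 2.99, 3.16 and 1.48 CPM in ctrl libraries. The caNrf2 levels lay within the range of the ctrl levels, whose lowest value, in library 3, rested on 30 counts. The fold was 1.05 (95% interval 0.703 to 1.58, edgeR adjusted p = 0.863). Without ctrl library 3 the log2 fold change was -0.25 in place of 0.074, and the adjusted p was 0.420.

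miR-193b-3p, the chromosome 16 counterpart known from brown fat, had 35.3, 30.4 and 35.8 CPM in caNrf2 libraries, against 25.1, 31.9 and 30.8 CPM in ctrl libraries. The groups overlapped through caNrf2 library 2, which lay below ctrl libraries 2 and 3. Mean levels were 33.8 ± 2.98 CPM in caNrf2 and 29.3 ± 3.64 CPM in ctrl fibroblasts (SD, n = 3 each). The log2 fold change of 0.20 ± 0.15 did not pass the threshold (edgeR adjusted p = 0.331), and the interval of the fold was 0.920 to 1.44. Without ctrl library 1 the log2 fold change was 0.10 (edgeR adjusted p = 0.664), less than the value over all libraries by more than 1.5 times. miR-193b-5p, its passenger arm, had 2.74, 2.16 and 2.25 CPM in caNrf2 libraries, against 1.35, 2.07 and 2.12 CPM in ctrl libraries. The groups did not overlap, although the lowest caNrf2 level and the highest ctrl level were separated by only a small gap. The log2 fold change was 0.30 ± 0.21 (edgeR adjusted p = 0.324), and without ctrl library 1, the lowest of the 6 with 14 counts, it was 0.16 (edgeR adjusted p = 0.659).

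miR-365-3p is the 3p arm made by both miR-365 genes. It had 138, 126 and 125 CPM in caNrf2 libraries, against 113, 123 and 108 CPM in ctrl libraries. All 3 caNrf2 levels were above all 3 ctrl levels, by a small margin between caNrf2 library 3 and ctrl library 2. The means of 129 ± 7.09 CPM in caNrf2 and 115 ± 7.58 CPM in ctrl fibroblasts (SD, n = 3 each) corresponded to a fold of 1.13 with a 95% interval of 0.965 to 1.32. The edgeR adjusted p was 0.236, and the lowest and highest over 13 alternatives were 0.0947 and 0.499. Because its sequence is identical in both genes, how the authors' counting treated reads that fit both is not given in the sources used here, and its absolute level is uncertain to that extent.

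miR-365-2-5p, which only the chromosome 11 gene makes, had 78.7, 68.4 and 66.3 CPM in caNrf2 libraries, against 64.0, 63.0 and 49.6 CPM in ctrl libraries. The caNrf2 levels were again above all ctrl levels, with caNrf2 library 1 the highest and ctrl library 3 the lowest. The fold was 1.21 (95% interval 0.978 to 1.49), and the edgeR adjusted p of 0.174 was the smallest of the 7. The log2 fold change was 0.27 ± 0.14 over all libraries and 0.16 without ctrl library 3 (edgeR adjusted p = 0.483).

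miR-365-1-5p, which only the chromosome 16 gene makes, was the rarest of the 7. It had 7, 8 and 29 counts in caNrf2 libraries 1, 2 and 3, against 10, 14 and 16 counts in ctrl libraries 1, 2 and 3. These correspond to 0.491, 0.332 and 1.04 CPM in caNrf2 and 0.963, 0.852 and 0.790 CPM in ctrl fibroblasts, so caNrf2 library 3 was the highest of all 6 and the other caNrf2 libraries the lowest. The exact 95% Poisson interval, which covers counting error only, was 0.197 to 1.01 CPM in caNrf2 library 1, 0.144 to 0.655 CPM in caNrf2 library 2 and 0.695 to 1.49 CPM in caNrf2 library 3. The log2 fold change was -0.38 ± 0.42 (edgeR adjusted p = 0.551). It was -1.11 without caNrf2 library 3 (edgeR adjusted p = 0.103) and -0.077 without caNrf2 library 2 (edgeR adjusted p = 0.914). The intervals of caNrf2 libraries 2 and 3 did not overlap, so the spread in this arm exceeded counting error, and no difference between the groups was detected.

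**Figure D1:**
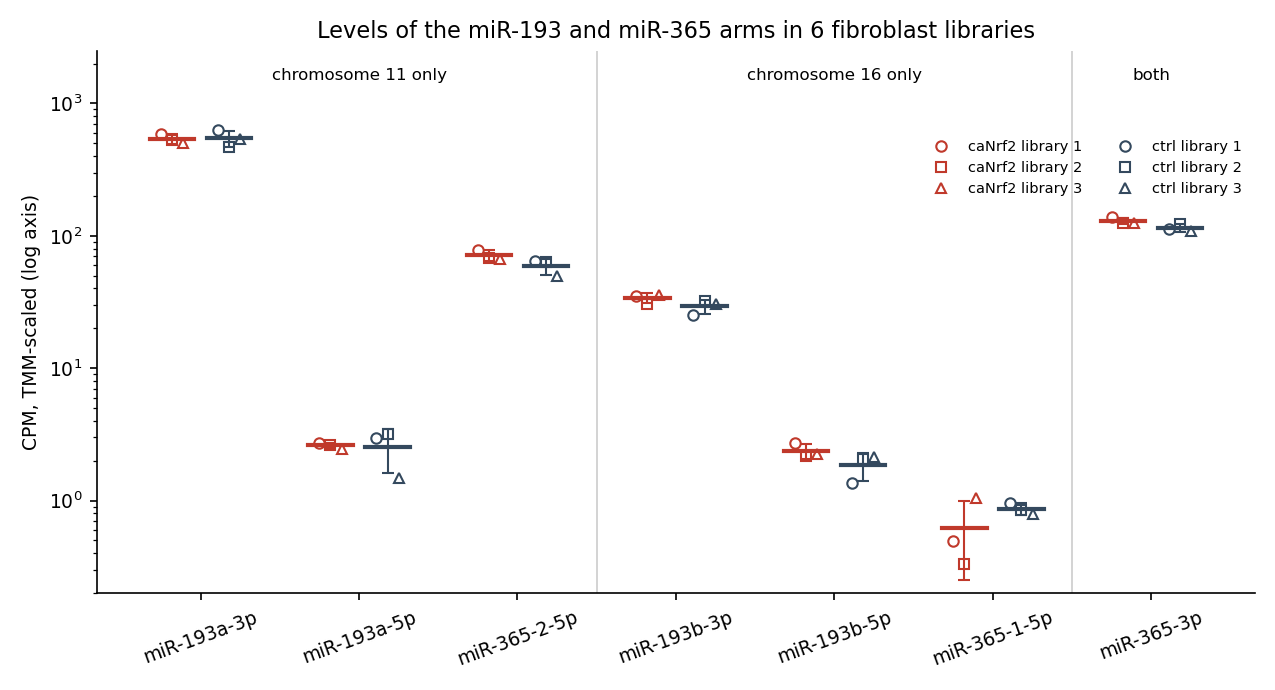
TMM-scaled CPM (log axis) of the 7 arms, grouped by the chromosome of the gene that makes them, in caNrf2 (red, left) and ctrl (dark blue, right) libraries. Each symbol is 1 library, the thick line is the mean and the bar the SD (n = 3). miR-193a-3p stands at 539 CPM in caNrf2 and 545 CPM in ctrl fibroblasts, and miR-365-1-5p at 0.620 CPM in caNrf2 and 0.868 CPM in ctrl fibroblasts.

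Across the family, 0 of 7 arms were called higher and 0 of 7 lower at an adjusted p under 0.05, where 25.7% of all 697 tested miRNAs were called (14.1% higher and 11.6% lower). All 7 arms passed the filter on low counts. None of the 7 had an unadjusted edgeR p under 0.05, which 38% of all tested miRNAs had, and DESeq2 and limma-voom also called 0 of 7. The groups were fully separated in CPM for 3 of 7 arms, miR-193b-5p, miR-365-3p and miR-365-2-5p, all of them higher in caNrf2 fibroblasts. Such separation was seen for 41.6% of all tested miRNAs in either direction and for 23.7% with caNrf2 higher. The log2 fold change was positive for 5 of 7 arms and for 53.5% of all tested miRNAs, and the median was 0.17 over the arms and 0.033 over all tested miRNAs. The arms are not independent of each other, since both arms of a hairpin come from 1 transcript. The plot of change against level places the 7 arms among all tested miRNAs.

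**Figure D2:**
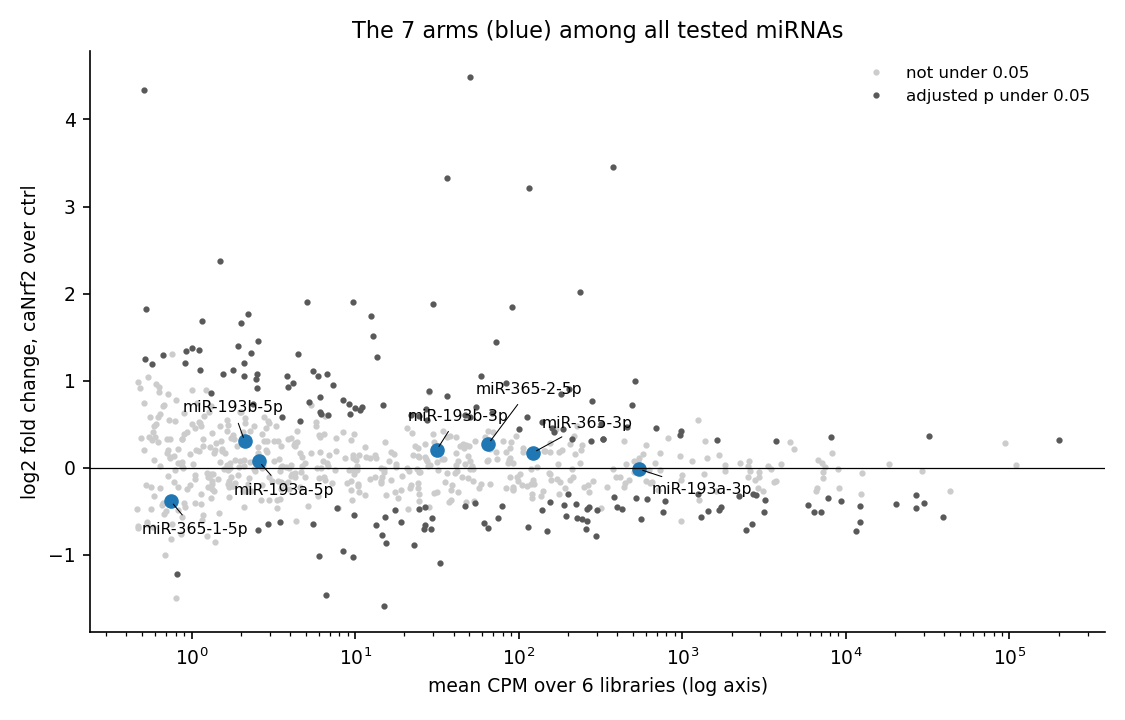
Log2 fold change, caNrf2 over ctrl, against mean CPM over the 6 libraries (log axis) for 697 tested miRNAs. Dark points had an edgeR adjusted p under 0.05, light points did not, and the 7 arms are in blue. The arms lie between -0.38 and 0.30 on the vertical axis.

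The intervals bound how large a change these libraries leave possible for the better measured arms. The upper limit of the fold was 1.17 for miR-193a-3p, 1.32 for miR-365-3p, 1.44 for miR-193b-3p and 1.49 for miR-365-2-5p, and the lower limits were between 0.836 and 0.978. For the 3 arms below 10 CPM the intervals were wider, from 0.402 to 1.46 for miR-365-1-5p, 0.703 to 1.58 for miR-193a-5p and 0.890 to 1.71 for miR-193b-5p. These intervals are for single miRNAs and were not adjusted for the number tested. They do not show that the levels of the groups were equal.

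The order of the levels was the same in both groups of fibroblasts. miR-193a-3p was followed by miR-365-3p, miR-365-2-5p, miR-193b-3p, miR-193a-5p, miR-193b-5p and miR-365-1-5p, which held ranks 98, 182, 226, 282, 497, 520 and 644 of the 697 tested miRNAs by mean CPM. Only miR-193a-5p and miR-193b-5p did not differ beyond their spread, their 6 levels ranging from 1.48 to 3.16 and from 1.35 to 2.74 CPM. Between the other neighbours in that order the ranges over the 6 libraries did not overlap, with the counting doubt on miR-365-3p given above.

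The 2 gene pairs contributed very unequally. Of the counts from the 6 arms that only 1 gene makes, the chromosome 11 arms held 94.5%, 94.8% and 93.6% in caNrf2 libraries 1, 2 and 3, against 96.2%, 93.9% and 94.6% in ctrl libraries 1, 2 and 3. The Wilson 95% intervals of these shares, which cover counting error only, lay between 93.2% and 95.2% in caNrf2 libraries and between 93.4% and 96.6% in ctrl libraries, and ctrl library 1 stood above the other libraries. The group means were 94.3% ± 0.663 in caNrf2 and 94.9% ± 1.17 in ctrl fibroblasts (SD, n = 3 each). Summed over the seed ACUGGCC, miR-193a-3p and miR-193b-3p reached 573 ± 44.5 CPM in caNrf2 and 574 ± 73.9 CPM in ctrl fibroblasts. miR-193a-3p made up 94.1% ± 0.675 of that sum in caNrf2 and 94.8% ± 1.26 in ctrl fibroblasts.

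Within a library the ratio of 2 arms does not depend on depth or scaling, and 5 such ratios were compared with two-sided exact permutation tests, in which 3 against 3 libraries cannot give a p below 0.1. miR-193a-3p outnumbered miR-193b-3p by 16.6, 17.5 and 13.96 times in caNrf2 libraries, against 24.9, 14.7 and 17.5 times in ctrl libraries. Ctrl library 1 stood out because it had the highest level of miR-193a-3p and the lowest of miR-193b-3p. The difference in the log2 ratio, caNrf2 minus ctrl, was -0.22 (exact permutation p = 0.5, adjusted over the 5 ratios 0.833), and it was -0.0096 without ctrl library 1, -0.12 without caNrf2 library 3 and -0.39 without ctrl library 2.

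miR-365-2-5p outnumbered miR-365-1-5p by 160, 206 and 63.9 times in caNrf2 libraries, against 66.5, 74.0 and 62.8 times in ctrl libraries. The caNrf2 libraries 1 and 2 were above all ctrl libraries and caNrf2 library 3 lay among them. The difference in the log2 ratio was 0.91 (exact permutation p = 0.3, adjusted 0.833), it was 1.39 without caNrf2 library 3 and 0.57 without caNrf2 library 2, and the denominators were the counts of 7 to 29 given above. The 5p arm of Mir365-2 accounted for 99.1% ± 0.575 of both 5p arms in caNrf2 and 98.5% ± 0.118 in ctrl fibroblasts (SD, n = 3 each).

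miR-193a-3p exceeded miR-193a-5p by 214, 203 and 202 times in caNrf2 libraries, against 209, 149 and 363 times in ctrl libraries. The caNrf2 libraries were close together and fell inside the wide ctrl range (difference in the log2 ratio -0.11, exact permutation p = 0.8, adjusted 0.9). miR-193b-3p exceeded miR-193b-5p by a smaller factor of 12.9, 14.1 and 15.9 times in caNrf2 libraries, against 18.6, 15.4 and 14.5 times in ctrl libraries (difference in the log2 ratio -0.16, exact permutation p = 0.4, adjusted 0.833). That difference was -0.069 without ctrl library 1, -0.093 without caNrf2 library 1 and -0.24 without caNrf2 library 3, and -0.059 with a pseudocount of 5 counts. As counted, miR-365-3p was 1.81 ± 0.0624 times the sum of both miR-365 5p arms in caNrf2 and 1.94 ± 0.204 times in ctrl fibroblasts (SD, n = 3 each). Were each of its reads counted for both genes, a case added after seeing the data, the ratios would be 0.904 ± 0.0312 in caNrf2 and 0.970 ± 0.102 in ctrl fibroblasts, so which arm of miR-365 was the more abundant cannot be told from the counts. miR-193b-3p stood at 0.256, 0.242 and 0.286 of miR-365-3p in caNrf2 libraries, against 0.222, 0.259 and 0.284 in ctrl libraries (difference in the log2 ratio 0.037, exact permutation p = 0.9, adjusted 0.9). None of the 5 ratios separated the groups.

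**Figure D3:**
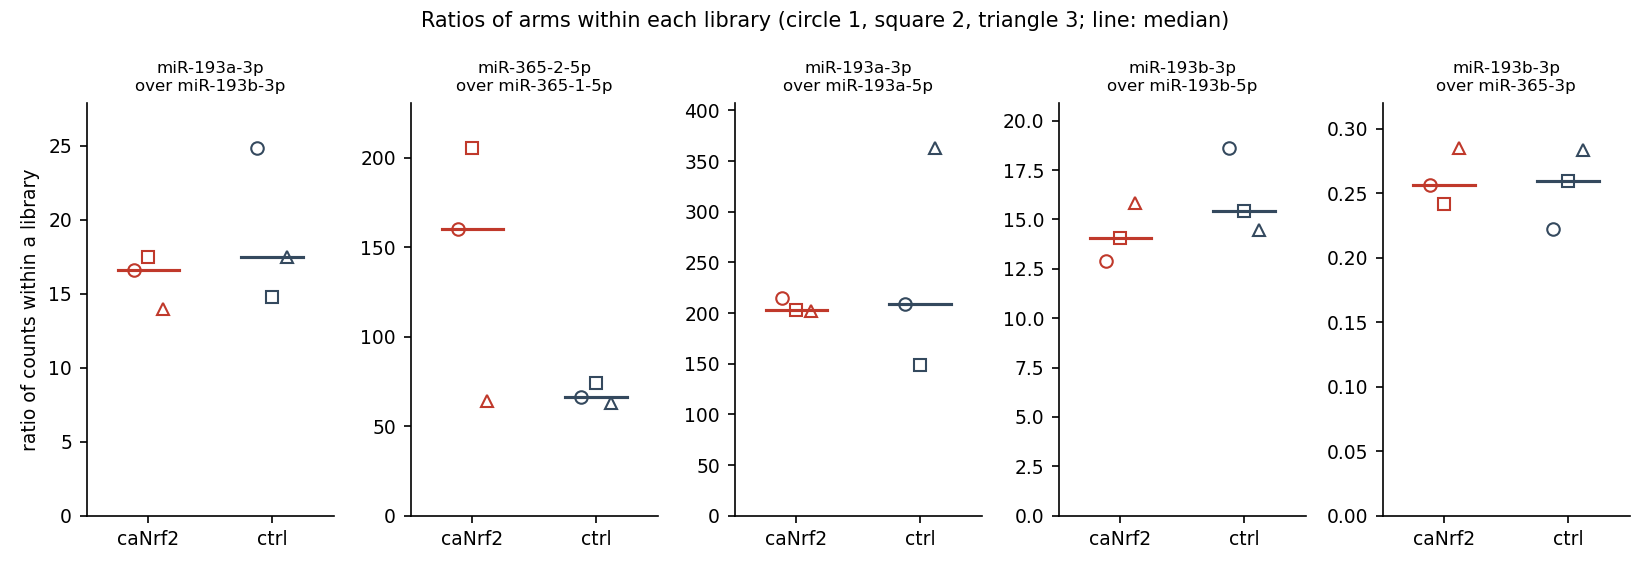
Ratios of counts of 2 arms within each library, with caNrf2 (red) left of ctrl (dark blue) in every panel. Circles, squares and triangles are libraries 1, 2 and 3, and the line is the median. The groups overlap in all 5 panels, and the miR-365-2-5p to miR-365-1-5p ratio of caNrf2 libraries runs from 63.9 to 206.

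Other miRNAs reported to respond to Nrf2 included called changes in both directions. Of 7 listed, 6 could be tested, and 3 were higher and 2 lower in caNrf2 fibroblasts (median log2 fold change 0.42), where 14.1% of all tested miRNAs were higher and 11.6% lower. miR-29c-3p, which represses collagen genes, rose by 0.97 ± 0.11 on the log2 scale (edgeR adjusted p = 2.28e-04), and the muscle miRNA miR-206-3p, at 7.93 ± 0.620 CPM in caNrf2 and 3.86 ± 0.731 CPM in ctrl fibroblasts, by 1.05 ± 0.16 (9.45e-04). miR-206-3p is also counted among the muscle markers given below, and all 4 of those that could be tested rose. The rise of miR-29a-3p, 0.36 ± 0.084 on the log2 scale (edgeR adjusted p = 0.0106), did not pass when caNrf2 library 2 (0.0577) or 3 (0.0516) was left out. miR-378a-3p fell by 0.51 on the log2 scale (edgeR adjusted p = 0.0149), and did not pass when caNrf2 library 1 (0.0558) or ctrl library 3 (0.0637) was left out. The other fall, in miR-125b-5p, was -0.38 ± 0.11 (edgeR adjusted p = 0.0299), and its call was lost without ctrl library 2 (0.0656) or any one caNrf2 library (0.0595 to 0.0689). Whether the response of the 7 arms differs from that of these miRNAs was not tested. Nor were the directions seen here compared with those of the earlier reports.

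**Figure D4:**
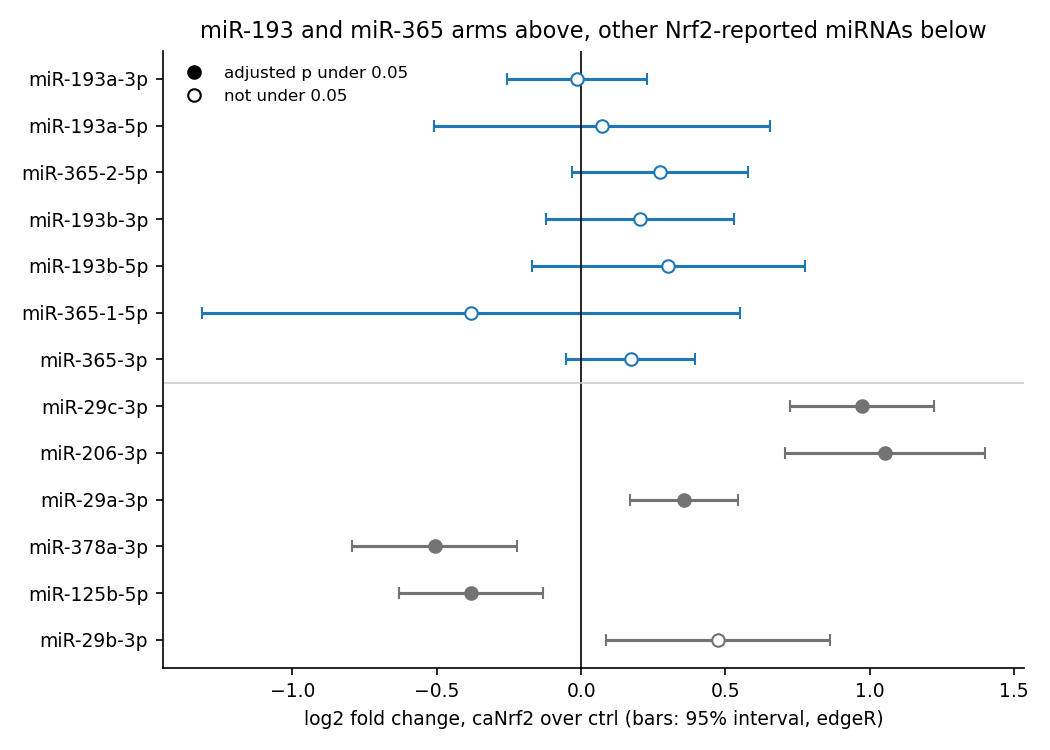
Log2 fold change, caNrf2 over ctrl, with its 95% interval for the 7 arms (blue, above the line) and 6 other miRNAs reported to respond to Nrf2 (grey, below). Filled circles had an edgeR adjusted p under 0.05. The intervals of all 7 arms include 0, and those of miR-29c-3p (0.97) and miR-206-3p (1.05) do not.

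Since miR-193b and miR-365 are known from brown fat, 13 other miRNAs linked to brown and beige fat were listed, and 3 of the 13 rose and 3 fell (median log2 fold change 0.027), where 14.1% of all tested miRNAs were higher and 11.6% lower. miR-133a-3p, a muscle miRNA that also holds back brown fat formation and that rose together with the other tested muscle markers given below, rose by 0.72 ± 0.12 on the log2 scale (edgeR adjusted p = 0.00145) and miR-328-3p by 0.51 ± 0.090 (0.00248). miR-30c-5p fell by 0.49 on the log2 scale (edgeR adjusted p = 8.16e-04), and miR-378a-3p also fell, as given above. The remaining calls were a rise in miR-27b-3p (0.37 ± 0.098, edgeR adjusted p = 0.0183) and a fall in miR-30b-5p (-0.36 ± 0.094, 0.0164), named after their values were seen. Each of these lost its call without any one of 4 libraries. For miR-27b-3p these were caNrf2 libraries 1 and 2 and ctrl libraries 2 and 3 (adjusted p 0.0557 to 0.0774), and for miR-30b-5p caNrf2 libraries 2 and 3 and ctrl libraries 1 and 3 (0.0511 to 0.0753). For miR-455-5p, another miRNA of brown fat cells, the log2 fold change was 0.027 ± 0.13 (edgeR adjusted p = 0.904), and its sign turned without caNrf2 library 3 (-0.0029) or ctrl library 2 (-0.068).

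Among 10 other miRNAs reported to repress cyclin D1, 0 rose and 3 fell (median log2 fold change -0.19), where 14.1% of all tested miRNAs were higher, 11.6% lower and 25.7% called either way. miR-322-5p, of the miR-15 and miR-16 seed family, fell by 0.72 on the log2 scale (edgeR adjusted p = 3.60e-04), miR-15b-5p by 0.47 (0.00696) and let-7b-5p by 0.50 (0.0140). miR-19b-3p, of the miR-17-92 cluster, stood at a log2 fold change of 0.26 ± 0.092 (adjusted p from edgeR 0.0664), and it passed with libraries scaled by their totals alone (0.0487).

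The miRNAs whose pattern over the 6 libraries was most like that of a 3p arm were sought among 367 others with a mean of at least 10 CPM, by Pearson's r of log2 CPM, as a description without a test. For miR-193a-3p they were miR-467c-5p (r = 0.94), miR-26b-5p (0.93) and miR-324-5p (0.92), with log2 fold changes of 0.061 ± 0.16, -0.042 ± 0.11 and 0.044 ± 0.18. For miR-193b-3p they were miR-7068-3p (r = 0.93), miR-3057-5p (0.93) and miR-148b-3p (0.91), with log2 fold changes of 0.29 ± 0.15, 0.13 ± 0.12 and 0.13 ± 0.080. For miR-365-3p they were miR-132-3p (r = 0.95), miR-615-3p (0.95) and miR-504-5p (0.94), with log2 fold changes of 0.26 ± 0.097, 0.17 ± 0.085 and 0.70 ± 0.17. Of these 9 only miR-504-5p was called (edgeR adjusted p = 0.0133), and its call was lost without ctrl library 3 (0.0595). miR-132-3p (edgeR adjusted p = 0.0779) passed once rarer miRNAs, averaging under 10 CPM, were left out (0.0434). No miRNA was among the 3 most alike for more than 1 arm. Taking the 3 highest of 367 values of r over only 6 libraries by itself favours high values.

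Markers of other cell types were measured beside the arms. Over all tested miRNAs, for comparison with the calls in these lists, 14.1% were higher and 11.6% lower. The 6 blood cell markers summed to between 157 and 234 CPM in caNrf2 and between 37.0 and 70.7 CPM in ctrl libraries. Of the 6, 3 rose, namely miR-223-3p, miR-142a-5p and miR-142a-3p (log2 fold changes 1.90, 1.85 and 1.74). Most of the sum came from miR-142a-5p, with means of 143 CPM in caNrf2 and 39.6 CPM in ctrl fibroblasts. The others were not called and differed in sign, at 0.48 for miR-451a, -0.10 for miR-150-5p and -0.998 for miR-144-3p (edgeR adjusted p = 0.0873). The 5 muscle markers summed to between 558 and 737 CPM in caNrf2 and between 344 and 421 CPM in ctrl libraries, and all 4 that could be tested rose. Most of the muscle sum came from miR-133a-3p, with means of 614 CPM in caNrf2 and 371 CPM in ctrl fibroblasts. The 7 epithelial markers ranged from 1600 to 2121 CPM in caNrf2 and from 1035 to 1865 CPM in ctrl libraries, and the 2 endothelial markers from 147 to 170 CPM in caNrf2 and from 116 to 165 CPM in ctrl libraries, with no call in either list. miR-205-5p made up most of the epithelial sum, with means of 1475 CPM in caNrf2 and 1013 CPM in ctrl fibroblasts. The 5 neural or melanocyte markers summed to between 208 and 213 CPM in caNrf2 and between 154 and 162 CPM in ctrl libraries, with 2 of 4 tested members higher. Most of that sum came from miR-128-3p, with means of 188 CPM in caNrf2 and 142 CPM in ctrl fibroblasts. The 2 called were miR-128-3p and miR-9-5p, while miR-211-5p and miR-204-5p were not called (edgeR adjusted p = 0.448 and 0.645). The defining markers miR-1a-3p of muscle fibres and miR-124-3p of neurons had only 25 and 17 counts over all 6 libraries and were not tested, and no marker was at 0 in all libraries. Their part in the levels of the miR-193 and miR-365 arms was not tested.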

How the data were processed

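Small RNA libraries from total RNA of 3 caNrf2 and 3 ctrl cultures, each from a different mouse per the series design, were analysed. The deposited files hold raw counts of reads per mature miRNA. Per the submitters' processing notes, the tools were edgeR, featureCounts, Bowtie, cutadapt and CASAVA 1.8, and the build was mm10. Their settings, the annotation release and the treatment of reads with several possible precursors are, in the sources used here, not given. Counts of an arm that 2 genes share may therefore hold each read once, in part or repeatedly.

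The main test was edgeR 4.0.16 run under R 4.3.3 (filterByExpr, minimum count 10, TMM, glmQLFit, glmQLFTest, no term other than group, Benjamini-Hochberg adjustment over 697 tested miRNAs). SEs and 95% intervals were derived from the F statistic. Ratios used log2 of counts plus 0.5 and exact permutation tests over 20 assignments; listed ratios are of the counts themselves. Alternatives were RLE factors, library totals, a filter at a mean of 10 CPM, none at all, DESeq2 1.42.0, limma-voom (limma 3.58.1), a replicate block, each library left out and, for ratios, a pseudocount of 5 counts. The other named miRNAs, except those named only as markers, were put through the same alternatives, a step added after seeing the data.

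The 7 arms, the lists and the tests were chosen with earlier results of these data known. Named were all 7 arms, the 4 with the smallest p in each list, and the 3 miRNAs most like each 3p arm. miR-125b-5p, miR-455-5p, miR-27b-3p, miR-30b-5p and the fibroblast markers were named outside that rule. Libraries of a group differed by more than sampling noise (lowest chi-square per degree of freedom 101). The test was checked on simulated counts with known changes.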

Additional observations from a re-analysis of the deposited data

How the results depend on the processing

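None of the 7 arms was called higher or lower in any of the 13 alternatives for the arms with a mean of at least 10 CPM, or of the 12 for the other 3, which that filter removes. The sign of the log2 fold change of miR-193a-3p turned with library totals alone (0.0093), with the 10 CPM filter (0.0077) and without caNrf2 library 3 or ctrl library 1, the values without 1 library ranging from -0.12 to 0.086. That of miR-193a-5p ranged from -0.25 to 0.31 without 1 library. The log2 ratio of miR-193a-3p over miR-193a-5p, caNrf2 minus ctrl, ranged from -0.41 to 0.23, and that of miR-193b-3p over miR-365-3p from -0.059 to 0.12. Among the miRNAs of like pattern, the log2 fold change ranged from -0.050 to 0.19 for miR-467c-5p, from -0.089 to 0.20 for miR-324-5p and from -0.16 to 0.048 for miR-26b-5p, and it ranged from -0.068 to 0.098 for miR-455-5p without 1 library and turned with RLE factors (-0.00969) and DESeq2 (-0.00974). In all, 98 tested miRNAs were higher and 81 lower. With the 10 CPM filter, which tests fewer miRNAs, 60 were higher and 71 lower, and RLE factors gave 91 and 92. Without 1 library between 71 and 97 were higher and between 55 and 82 lower. With a replicate block 102 were higher and 87 lower, and no arm was called. The labels do not say that same-numbered libraries share anything, so the numbers were not taken as pairs. The deviations of same-numbered libraries correlated at 0.18, 0.11 and -0.22, and not every library correlated best with its own number. Deviations from means of only 3 libraries constrain each other, so these correlations cannot decide whether pairs exist. The causes of these shifts were not tested. Counts were lowest for the 3 arms below 10 CPM, miR-365-1-5p having 84 in all.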
